A study of Mus musculus with 8 samples.

Results

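The dystrophin-glycoprotein complex was followed through 8 of its genes, Dmd, Utrn, Dag1, Sgca, Sgcb, Sgcd, Sspn and Sntb1, in left ventricles of mice with a knockout of the microprotein gene Nbdy and of wild-type mice. The genes were chosen by name, with earlier results of these data known. Their symbols were matched to Ensembl identifiers through GENCODE M21. All 8 were found among the 38293 identifiers of the deposited count table, and all 8 were among the 13336 genes with enough counts to be tested. Poly(A) RNA was sequenced from 4 hearts of mice with a knockout of mORF4/NBDY (KO, replicates 5 to 8) and from 4 wild-type hearts (WT, replicates 1 to 4), with 1 library per heart. All mice were untreated males on a C57BL/6 background at 8 weeks of age. The labels do not describe the knockout allele, name a tissue-specific driver, or say whether the WT mice were littermates, so genotype and colony cannot be told apart.

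The complex spans the plasma membrane of striated muscle and joins the actin cytoskeleton to the basement membrane. Dystrophin, encoded by Dmd, binds actin at one end and beta-dystroglycan at the other, and utrophin, its autosomal paralogue, can take its place. Dystroglycan binds laminin outside the cell through sugar chains, the sarcoglycans and sarcospan stabilise it within the membrane, and syntrophins recruit signalling proteins beneath it. Loss of Dmd causes muscular dystrophy with cardiomyopathy, and loss of Sgcb or Sgcd can do so too.

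No difference between KO and WT hearts passed the test for any of the 8 genes. In edgeR's quasi-likelihood test 0 of 8 passed an adjusted p of 0.05 over all genes tested, where 0.0225% of all tested genes passed, and DESeq2 and limma-voom also called 0 of 8. At an unadjusted p below 0.05 the count was again 0 of 8, against 6.4% of all tested genes. Fold changes ran from -0.23 (Sntb1) to 0.15 (Dag1) on the log2 scale, with 3 positive and 5 negative. KO and WT libraries overlapped for each of the 8 genes, while 4.12% of all tested genes had groups that did not overlap. The median of the 8 was -0.08, and that of all genes tested was -0.0032. The median of the members moved with single libraries: it was 0.0176 without WT replicate 1, between -0.0302 and -0.0185 without WT replicate 2, KO replicate 5 or KO replicate 7, and between -0.136 and -0.109 without any 1 of the rest.

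The libraries held 11101901 to 14699949 counts, and CPM values below are counts scaled to library size with TMM factors. The targeted gene separated the groups, with 137, 135, 133 and 115 counts of Nbdy in KO replicates 5 to 8 and 241, 208, 246 and 248 in WT replicates 1 to 4 (log2 fold change -0.97 ± 0.11 SE, adjusted p = 0.0060 in edgeR, and 0.056 without KO replicate 6). The KO hearts thus kept 0.511 times the WT level of Nbdy transcript (95% interval from 0.430 to 0.606), and the labels do not say whether the counted exons lie in the altered part of the gene. Markers of heart muscle were present, and 8 of 8 cardiomyocyte markers were tested. They summed to 63400 to 75400 CPM in KO and 61600 to 73000 CPM in WT. Of 8 skeletal muscle markers 0 had enough counts, and their sum stayed at or below 1.89 CPM in KO and 2.69 CPM in WT. Neither list separates ventricle from atrium. Atrial markers (4 of 6 tested) summed to 496 to 752 CPM in KO and 302 to 515 CPM in WT. Nppa made up most of this sum, with 601 ± 123 CPM in KO and 400 ± 96.4 CPM in WT (SD, n = 4 each). Its libraries overlapped between genotypes, and edgeR gave it an adjusted p of 0.711. Sln and Myl7 had too few counts to be tested. The share of atrial tissue was not tested. WT replicates 1 and 2 stood apart in single measures that touch the results. WT replicate 1 had 29.2% mitochondrial counts, against 23.0% to 26.7% in KO and 19.4% to 19.9% in the other WT libraries. WT replicate 2 held 658 CPM of Xirp2, an actin-binding protein of cardiomyocytes, against 243 to 280 CPM in the other WT libraries. Xirp2 is 1 gene, named after its values were seen. The mitochondrial share of WT replicate 2 was 19.4%, close to 19.7% and 19.9% in WT replicates 3 and 4.

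The sequences upstream of 4 transcript starts are shown as description: 2 of Dmd, whose transcripts a gene-level count adds together, and those of Sgca and Sgcb. Whether these sequences bear on any level was not tested. GENCODE lists 14 transcripts of Dmd, of which 3 are protein-coding, from 2 distinct starts 2.1 Mb apart. The upstream start gives the full-length protein of muscle, and the internal one a short protein of the C-terminal end that many other cell types make. A count for Dmd sums both. Sgca and Sgcb are shown because they had the only pair of levels whose ratio did not overlap between genotypes (1.5 to 1.58 in KO and 1.2 to 1.43 in WT), although the groups overlapped once each library was corrected for GC content and length. That is 1 of 28 pairs of members, or 3.57%, where 3.70% of all pairs of tested genes had ratios that did not overlap, so the share of such pairs was near the background. RefSeq starts (GRCm38.p6) were at hand for 7 of 8 members and not for Sntb1. Each sequence is the 250 bases before the start, 5′ to 3′ on the gene's strand. Capitals mark the E-box letters CANNTG, a motif of basic helix-loop-helix factors in general.
Dmd upstream start, chrX:82948620-82948869, plus strand: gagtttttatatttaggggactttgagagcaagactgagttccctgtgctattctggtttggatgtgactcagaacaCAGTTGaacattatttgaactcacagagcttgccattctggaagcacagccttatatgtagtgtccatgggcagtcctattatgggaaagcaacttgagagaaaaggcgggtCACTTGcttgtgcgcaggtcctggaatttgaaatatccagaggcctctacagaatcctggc
Dmd internal start, chrX:85048045-85048294, plus strand: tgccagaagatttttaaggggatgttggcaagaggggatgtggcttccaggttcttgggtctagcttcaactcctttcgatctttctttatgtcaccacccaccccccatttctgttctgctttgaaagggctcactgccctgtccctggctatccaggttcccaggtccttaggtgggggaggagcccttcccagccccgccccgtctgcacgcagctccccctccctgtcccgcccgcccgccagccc
Sgca, chr11:94976328-94976577, minus strand: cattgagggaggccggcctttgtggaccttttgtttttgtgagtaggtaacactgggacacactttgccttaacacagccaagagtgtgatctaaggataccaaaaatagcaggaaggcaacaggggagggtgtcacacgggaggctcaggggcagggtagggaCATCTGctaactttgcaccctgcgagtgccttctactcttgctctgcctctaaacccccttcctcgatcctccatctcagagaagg
Sgcb, chr5:73647738-73647987, minus strand: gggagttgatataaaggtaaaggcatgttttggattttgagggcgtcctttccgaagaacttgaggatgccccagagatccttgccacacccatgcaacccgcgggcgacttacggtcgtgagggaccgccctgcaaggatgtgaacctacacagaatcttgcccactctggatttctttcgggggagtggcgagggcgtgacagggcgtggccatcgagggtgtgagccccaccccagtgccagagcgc

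The letters CANNTG, which read the same on both strands, occurred 2 times before the upstream Dmd start, 0 times before the internal one, 1 time before Sgca and 0 times before Sgcb. They were present in 66.2% of 32851 windows of the same length. The GC box letters GGGCGG, searched on both strands, occurred 0, 3, 0 and 1 times in the same order, and 32.7% of all windows held them. The TATA box letters TATAAA, searched likewise, occurred 1, 0, 0 and 1 times, and 12.4% of all windows held them. The letters CCAAT occurred 0 times in each of these windows, and 33.8% of all windows held them. GC content was 45.2% before the upstream Dmd start, 60.0% before the internal one, 52.8% before Sgca and 58.4% before Sgcb, and the median of all windows was 52.4%. No CANNTG match in these windows overlapped a GC box. A match describes letters and not binding.

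Dmd, the actin-linked rod of the complex, lies on chromosome X from 82948870 to 85206141 (GRCm38, plus strand). It held 538, 672, 495 and 533 counts in KO replicates 5 to 8 and 664, 469, 498 and 544 counts in WT replicates 1 to 4. In CPM these were 37.7, 47.7, 38.8 and 46.6 in KO and 53.3, 43.2, 40.7 and 41.8 in WT. WT replicate 1 was the highest of the 8 libraries, and the KO libraries lay on both sides of the other WT libraries. The means were 42.7 ± 5.19 CPM in KO and 44.8 ± 5.81 CPM in WT (SD, n = 4 each). This is -0.07 ± 0.12 (SE) as a log2 fold change, and edgeR gave an adjusted p of 0.940. Its 95% confidence interval ran from -0.34 to 0.20, or from 0.791 to 1.15 times the WT level. Without WT replicate 1, the library with the high mitochondrial share, the value was 0.03; the part of that share in the Dmd level was not tested.

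Utrn, on chromosome 10 from 12382188 to 12869365 (minus strand), had 52.1, 62.7, 63.5 and 63.6 CPM in KO and 72.3, 72.6, 55.5 and 57.1 CPM in WT. The KO libraries except replicate 5 were nearly equal, while the WT libraries split into a higher and a lower pair. The means were 60.5 ± 5.6 CPM in KO and 64.4 ± 9.35 CPM in WT (SD, n = 4 each), which is -0.09 ± 0.12 (SE) on the log2 scale (edgeR, adjusted p = 0.914; 95% interval from -0.36 to 0.18). Utrophin is also made by endothelial cells, and in bulk tissue fewer cells of a type and less RNA per cell cannot be told apart. The 6 endothelial markers summed to 1070 to 1430 CPM in KO and 1130 to 1410 CPM in WT, ranges that overlapped, and their part in the Utrn level was not tested.

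The ratio of Utrn to Dmd counts does not depend on how a library is scaled, and utrophin is known to rise in muscle that lacks dystrophin. The ratio was 1.38, 1.31, 1.63 and 1.36 in KO and 1.36, 1.68, 1.36 and 1.37 in WT. Replicate 7 of KO and replicate 2 of WT were higher than the rest, and the other libraries lay close together. The mean was 1.42 ± 0.143 in KO and 1.44 ± 0.159 in WT (SD, n = 4 each). The difference of -0.018 was smaller than the spread within either group (exact two-sided permutation test over 70 assignments, p = 0.686, where the smallest possible p is 0.0286). Its sign turned when WT replicate 2 was left out (0.0616, exact p = 0.686), and likewise without KO replicate 6 (0.0187) or KO replicate 8 (0.00207).

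**Figure D1:**
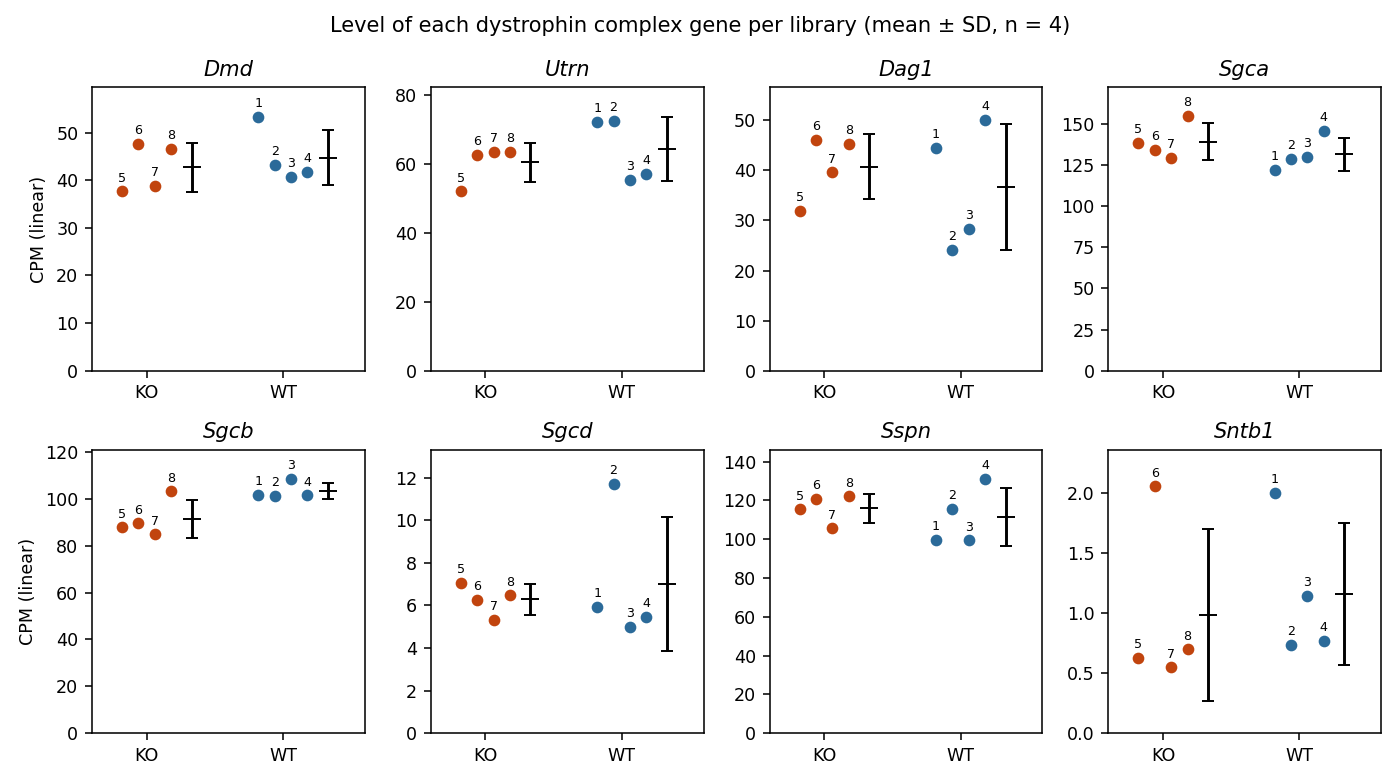
CPM of the 8 genes on linear axes that start at 0, with KO replicates 5 to 8 on the left and WT replicates 1 to 4 on the right of each panel; each point is 1 library with its replicate number, and bars are mean ± SD (n = 4). The groups overlap in every panel, and WT replicate 2 stands at 11.7 CPM for Sgcd and 24.1 CPM for Dag1.

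Dag1 encodes both subunits of dystroglycan, the laminin receptor of the complex, and lies on chromosome 9 from 108204634 to 108263958 (minus strand). It had 32.0, 46.0, 39.6 and 45.3 CPM in KO and 44.6, 24.1, 28.3 and 50.1 CPM in WT. WT replicates 2 and 3 were the lowest of the 8 libraries and WT replicate 4 the highest, so that the WT hearts enclosed the KO hearts. The mean was 40.8 ± 6.51 CPM in KO and 36.8 ± 12.6 CPM in WT (SD, n = 4 each), with a coefficient of variation of 16.0% in KO and 34.2% in WT. KO stood 0.15 ± 0.21 (SE) above WT on the log2 scale (edgeR, adjusted p = 0.921; 95% interval from -0.31 to 0.60). Leaving out WT replicate 2 brought it to -0.01, and leaving out WT replicate 4 to 0.33.

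The sarcoglycans Sgca, Sgcb and Sgcd encode the alpha, beta and delta subunits, which assemble before they reach the membrane. Sgca, on chromosome 11 from 94962791 to 94976327 (minus strand), had 138.4, 134.0, 129.5 and 154.9 CPM in KO and 122.1, 128.7, 130.0 and 145.7 CPM in WT. Replicates 8 of KO and 4 of WT were the highest of their groups, and the ranges overlapped over most of their length. The mean was 139.2 ± 11.1 CPM in KO and 131.6 ± 9.99 CPM in WT (SD, n = 4 each; log2 fold change 0.08 ± 0.11 SE, adjusted p = 0.911 in edgeR, 95% interval from -0.15 to 0.31).

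Sgcb, on chromosome 5 from 73632749 to 73647790 (minus strand), came closest to a difference among the 8 genes. It had 87.8, 89.5, 84.9 and 103.2 CPM in KO and 101.8, 101.2, 108.6 and 101.5 CPM in WT. Replicates 5, 6 and 7 of KO were below every WT library, and KO replicate 8 lay within the WT range. The mean was 91.3 ± 8.11 CPM in KO and 103.3 ± 3.54 CPM in WT (SD, n = 4 each). KO differed from WT by -0.18 ± 0.10 (SE) on the log2 scale, and edgeR gave an adjusted p of 0.787. Its 95% interval ran from -0.40 to 0.04, or from 0.759 to 1.03 times the WT level, and the value was -0.10 once a trend in GC content and length was removed from each library.

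Sgcd, on chromosome 11 from 46896253 to 47988969 (minus strand), was far scarcer, with 101, 88, 68 and 74 counts in KO and 74, 127, 61 and 71 in WT. These were 7.07, 6.25, 5.33 and 6.47 CPM in KO and 5.94, 11.7, 4.98 and 5.45 CPM in WT. WT replicate 2 alone was 2.14 times the mean of the other WT libraries, and all other hearts, KO and WT, lay within one narrow band. The log2 fold change of -0.15 ± 0.26 (SE, adjusted p = 0.931 in edgeR) became 0.20 without WT replicate 2 (adjusted p = 0.971 in edgeR). Nrap and Fhl1 were picked because their profiles over the 8 libraries were the 2 most like that of Sgcd. That both were highest in WT replicate 2 follows from this choice and is not separate evidence. Nrap, an actin-anchoring protein of the intercalated disc, had 749 CPM there, and Fhl1, a LIM-domain protein of the sarcomere, had 215.5 CPM. Over the other libraries Nrap ranged from 369.6 to 494.8 CPM in KO and from 320.1 to 454.3 CPM in WT, and Fhl1 from 90.0 to 101.1 CPM in KO and from 83.5 to 91.7 CPM in WT.

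Sspn encodes sarcospan, a membrane protein that binds the sarcoglycans, and lies on chromosome 6 from 145931641 to 145965223 (plus strand). It had 115.4, 120.8, 105.6 and 122.0 CPM in KO and 99.5, 115.6, 99.4 and 131.0 CPM in WT. The KO hearts fell inside the WT range. The mean was 115.9 ± 7.49 CPM in KO and 111.4 ± 15.1 CPM in WT (SD, n = 4 each; log2 fold change 0.06 ± 0.12 SE, adjusted p = 0.950 in edgeR, 95% interval from -0.20 to 0.31). Exons of Sspn share 69 bases with the antisense gene Sspnos, which held at most 12 counts in any library. It was the only annotated exon overlap found for the 8 genes.

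Sntb1 encodes beta-1 syntrophin, an adaptor that binds dystrophin, and lies on chromosome 15 from 55636388 to 55906949 (minus strand). Its counts were 9, 29, 7 and 8 in KO and 25, 8, 14 and 10 in WT, so it passed the count filter with just 4 libraries at 10 or more counts. KO replicate 6 and WT replicate 1 were the high libraries of their groups. The log2 fold change of -0.23 ± 0.50 (SE, adjusted p = 0.953 in edgeR) had a 95% interval from -1.31 to 0.85, which spans 0.403 to 1.81 times the WT level. It was -0.89 without KO replicate 6 and 0.17 without WT replicate 1, so its direction turned with a single library.

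**Figure D2:**
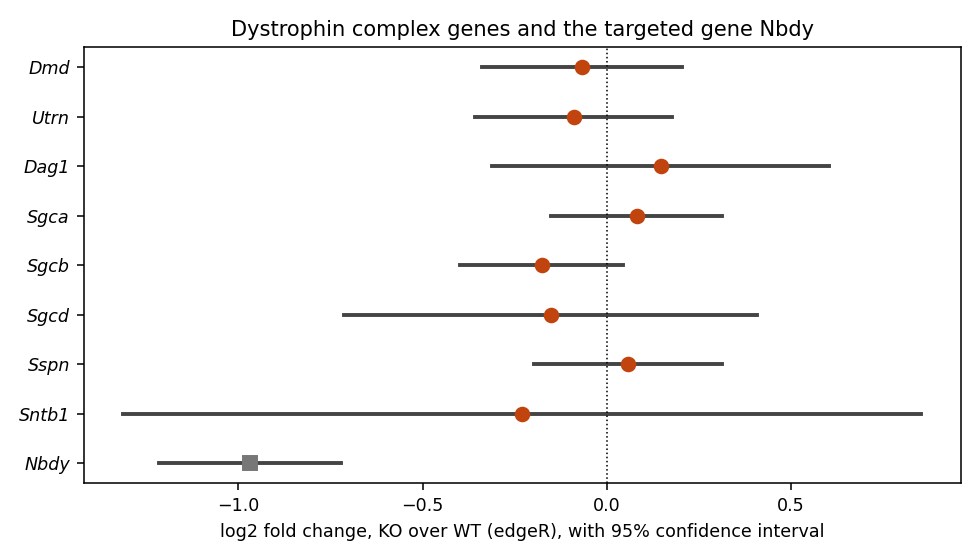
Log2 fold change of KO over WT from edgeR for the 8 genes (circles) and for the targeted gene Nbdy (square), with 95% confidence intervals as lines. All 8 intervals include 0, from -0.40 to 0.04 for Sgcb to -1.31 to 0.85 for Sntb1, and that of Nbdy, from -1.22 to -0.72, does not.

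**Figure D3:**
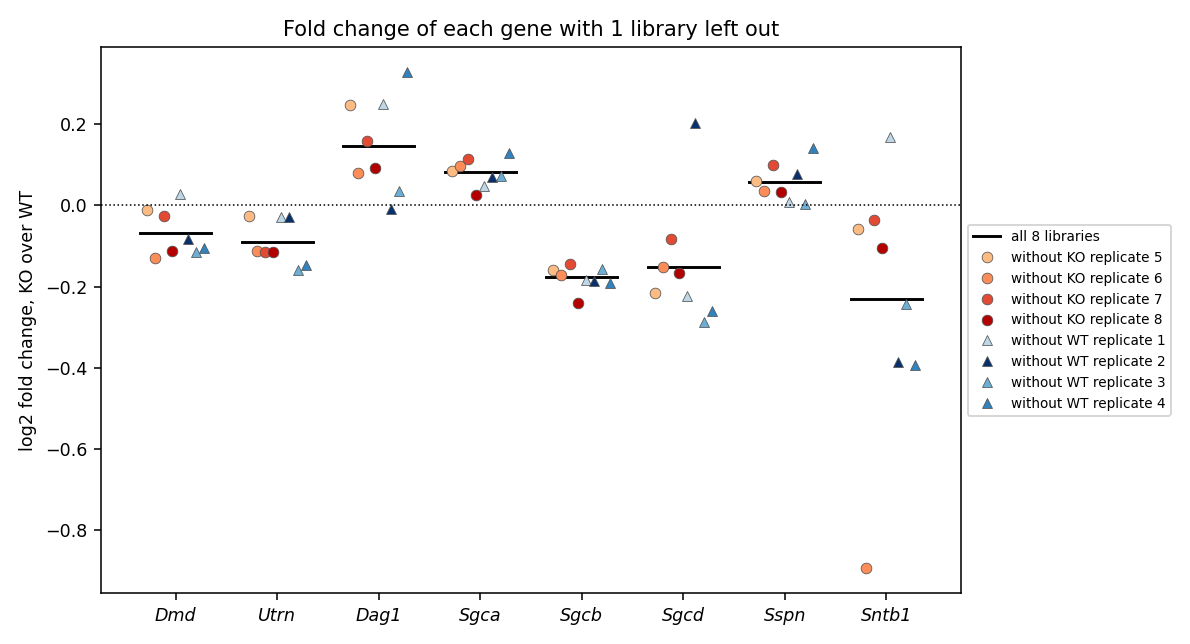
Log2 fold change of KO over WT for each gene with all 8 libraries (black bar) and with 1 library left out (circles for KO, triangles for WT). Sgca, Sspn, Sgcb and Utrn keep their sign throughout, Dmd, Dag1, Sgcd and Sntb1 each cross 0 once, and the lowest point is -0.89 for Sntb1 without KO replicate 6.

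The spread between hearts of 1 genotype differed among the 8 genes. Sgcb and Sgca were among the steadiest transcripts of the ventricle: the pooled within-group SD of log2(CPM + 0.5) was 0.0936 for Sgcb and 0.109 for Sgca, and 3.88% and 7.33% of tested genes had a smaller one. Sspn (0.151), Dmd (0.175) and Utrn (0.178) lay in the lower part of the distribution too. Dag1 (0.393), Sgcd (0.389) and Sntb1 (0.539) were variable: 85.0% of tested genes had a smaller SD than Dag1, 84.5% than Sgcd, and a still larger share than Sntb1. These shares were not matched on level, and counting noise adds to the SD of scarce transcripts. Sntb1 held 7 to 29 counts per library, Sgcd 61 to 127 and Dag1 261 to 653, while Sgcb held 1082 to 1329 and Sgca 1396 to 1978. The part of counting noise in these SDs was not tested. For Dag1 and Sgcd the WT hearts were the variable ones, with an SD of 0.240 in KO and 0.502 in WT for Dag1, and of 0.157 in KO and 0.527 in WT for Sgcd. For Sgcd this rested on WT replicate 2, without which the WT SD was 0.116, while for Dag1 the WT SD stayed at 0.431 to 0.561 with any 1 WT library left out.

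Levels of different genes were compared as CPM per kilobase of the longest annotated transcript. Sgca stood highest, with 80.8 ± 6.42 in KO and 76.3 ± 5.79 in WT (SD, n = 4 each). Sgcb (24.1 ± 2.14 in KO and 27.3 ± 0.934 in WT) and Sspn (25.7 ± 1.66 in KO and 24.7 ± 3.36 in WT) followed, with ranges over the 8 libraries that overlapped each other. Dag1 (7.20 ± 1.15 in KO and 6.49 ± 2.22 in WT) and Utrn (4.88 ± 0.452 in KO and 5.20 ± 0.755 in WT) came next and overlapped as well. Dmd followed at 2.86 ± 0.348 in KO and 3.0 ± 0.389 in WT, Sgcd at 1.41 ± 0.162 in KO and 1.58 ± 0.707 in WT, and Sntb1 at 0.200 ± 0.146 in KO and 0.237 ± 0.120 in WT. Dmd and Sgcd overlapped only through WT replicate 2, which reached 2.63 for Sgcd, and did not overlap when all annotated exons were used as the length. The order was the same with either length. The sarcoglycan subunits, which form 1 protein complex, differed widely in transcript level, with Sgca highest and Sgcd lowest in each of the 8 libraries. Poly(A) selection and the annotated length can shift such levels for transcripts as long as Dmd (14910 bases) and Utrn (12382 bases), and their part was not tested.

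**Figure D4:**
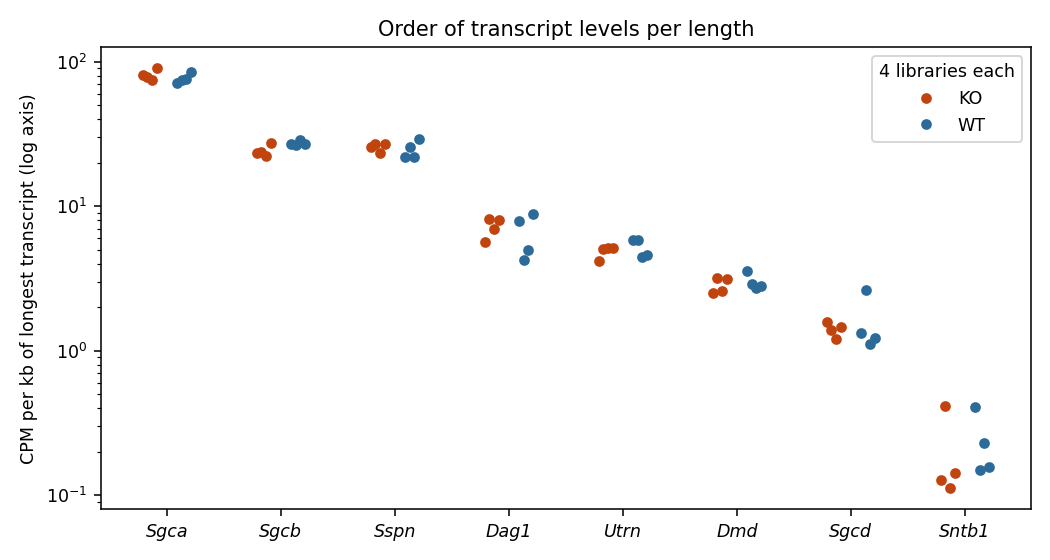
CPM per kilobase of the longest annotated transcript on a log axis, ordered by the mean of the 8 libraries, with KO libraries on the left and WT libraries on the right of each position (4 points each). Levels fall from about 78.5 for Sgca to 0.218 for Sntb1, and the genotypes overlap at each gene.

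The most similar genes were sought among 10294 genes with a mean of at least 5 CPM, by the mean absolute difference over the 8 libraries of log2 CPM taken relative to each gene's own mean. For Dmd these were Taf9b (0.028) and Sppl2a (0.043), where the median gene differed by 0.205. For Utrn they were Rbm7 (0.0296) and Rab6a (0.043), for Sgca Fech (0.0337) and Rpusd4 (0.0417), for Sgcb Slc25a51 (0.0397) and Esf1 (0.0405), and for Sspn Tmem143 (0.0351) and Epm2a (0.0357). For Dag1 they were Ypel2 (0.0967) and Ret (0.101), for Sgcd Nrap (0.0875) and Fhl1 (0.0943), and for Sntb1 Xaf1 (0.310) and Alg6 (0.341). No member appeared among the 2 closest genes of another, but only 2 of so many genes were kept for each. Sntb1 lay below the 5 CPM cutoff and could not appear. Whether the members vary together was not tested.

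No other subunit of the complex passed the test. Of 11 listed genes 6 had enough counts, and 0 passed in either direction (median log2 fold change 0.0030). Sgce, the epsilon subunit found in many tissues, had 18.2 ± 1.62 CPM in KO and 21.2 ± 1.02 CPM in WT (-0.22 ± 0.11, adjusted p = 0.783 in edgeR). Sntb2, a second beta syntrophin, had 5.31 ± 0.651 CPM in KO and 5.85 ± 0.771 CPM in WT. Dtna, which encodes alpha-dystrobrevin, a dystrophin-related partner, had 33.2 ± 10.8 CPM in KO and 28.4 ± 1.45 CPM in WT. KO replicate 8 alone held 49.4 CPM, and without it the log2 fold change of Dtna was -0.03 in place of 0.22. Dtnb, the beta form, had 3.64 ± 0.624 CPM in KO and 3.59 ± 1.03 CPM in WT. Sgcz, Sntg1, Sntg2, Drp2 and Dytn had too few counts to be tested.

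The enzymes that build the laminin-binding sugar of dystroglycan, the matrix proteins that bind it, and the partners beneath the membrane were read from 5 further lists. Of 17 glycosylation genes 0 passed (median 0.0079), as for 10 tested basement membrane ligands (0.07), 20 cytosolic partners (0.01), 10 genes of the integrin linkage (-0.05) and 12 of membrane repair (0.05). Pomt1, which adds the first mannose, had 15.8 ± 1.63 CPM in KO and 15.4 ± 3.71 CPM in WT. Lama2, the laminin chain of muscle basement membrane, had 64.6 ± 4.46 CPM in KO and 62.4 ± 7.21 CPM in WT. Cav3, the muscle caveolin, had 60.8 ± 3.67 CPM in KO and 63.7 ± 10.3 CPM in WT. Itga7, the laminin-binding integrin of muscle, had 110.3 ± 23.9 CPM in KO and 101.8 ± 19.8 CPM in WT, and Dysf, a membrane repair protein, had 149.3 ± 17.7 CPM in KO and 144.4 ± 15.7 CPM in WT (all SD, n = 4 each). Nos1, the neuronal nitric oxide synthase that syntrophin anchors in skeletal muscle, held 15 counts in all 8 libraries together and was not tested.

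Over the 6 lists beside the members, 75 genes were tested, 0 passed over all genes, and 6 had an unadjusted p below 0.05, which is 8.0% of them against 6.4% of all genes. These 6, of which all but Plec were singled out after their values were seen, were Plec, Agrn, Pomt2 and Trpc1 with positive values and Actb and Xirp2 with negative ones. Plec encodes plectin, which ties intermediate filaments to the complex, and had 338.6 ± 21.1 CPM in KO and 269.4 ± 17.4 CPM in WT (SD, n = 4 each). That is 0.33 ± 0.11 (SE) on the log2 scale (edgeR, adjusted p = 0.711), and 0.12 once each library was corrected for GC content and length. Agrn, the basement membrane proteoglycan agrin, had a log2 fold change of 0.40 ± 0.15, and of 0.26 with that correction. Pomt2, the partner of Pomt1, stood at 0.35 ± 0.13 and the cation channel gene Trpc1 at 0.70 ± 0.26. Actb, cytoplasmic beta-actin, stood at -0.33 ± 0.14. Xirp2 stood at -0.65 ± 0.28, and at -0.18 without WT replicate 2. With the correction for GC content and length, Pomt2 was at 0.25, Trpc1 at 0.72, Actb at -0.33 and Xirp2 at -0.60. Adjusted p-values of these genes were 0.711 to 0.772 in edgeR. Groups did not overlap for 4 of the 75 genes (5.33% against 4.12% of all genes), with Plec, Pomt2 and Trpc1 higher in KO and Lamb1, a laminin beta chain, lower at -0.19 ± 0.10. Lamb1 was at -0.30 with the correction for GC content and length.

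**Figure D5:**
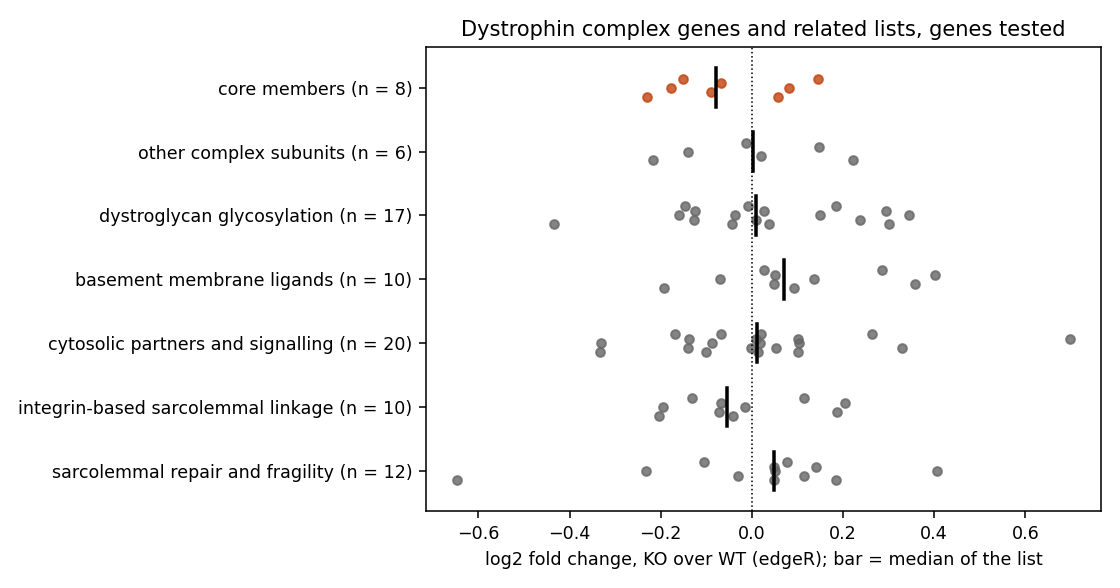
Log2 fold change of KO over WT for each tested gene of the 8 members (orange) and of 6 related lists (grey); black bars are medians of the lists. The members lie between -0.23 and 0.15, and the list medians between -0.08 and 0.07.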

How the data were processed

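Libraries were made with a stranded TruSeq mRNA kit and RNA was taken with TRIzol, per the labels' protocols. The submitters' processing notes name STAR 2.7.1a as aligner and GRCm38 (mm10) as the build. How reads were counted, whether by strand and with which annotation, is not given in the sources used here. Raw counts per Ensembl gene were deposited as 1 table, without normalization, with column names that equal the sample titles. Symbols, positions and lengths came from GENCODE M21 (GRCm38), which held 36429 of 38293 identifiers. All 28 pairs of libraries differed beyond counting noise (chi-square of 10.78 to 55.45 per degree of freedom). This measure cannot tell separate hearts from separate libraries of 1 heart, and each library was counted as 1 sample by its label.

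Genes kept by filterByExpr (minimum count 10) were scaled by TMM. Genotype was the single term of a two-sided quasi-likelihood test in edgeR 4.0.16 under R 4.3.3. Benjamini-Hochberg adjustment covered all 13336 tested genes, and the threshold was 0.05. SE was taken from the fold change and its F statistic, and intervals are at 95%. Alternatives were DESeq2 1.42.0, limma-voom (limma 3.58.1), a robust edgeR fit, scaling by library totals or by DESeq2 size factors, no filter or one of 1 CPM in 4 libraries, a fit without mitochondrially encoded genes, a correction of each library for GC content and length (natural splines, 4 degrees of freedom each), a threshold of 0.10, and each library left out in turn. The code was tested on simulated data.

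The members and lists were chosen with earlier results of these data known. The text names all 8 members, Nbdy and genes of the other lists picked by role. It also names listed genes that pass over all genes, and the 2 genes most similar to each member. Xirp2, Agrn, Pomt2, Trpc1, Actb, Lamb1 and the atrial markers Nppa, Sln and Myl7 were named after their values were seen. The spread with a library left out and the ratios over all pairs of 13309 tested genes with a count in every library were added after seeing the data. Values of a few further genes picked by role are not reported here.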

Additional observations from a re-analysis of the deposited data

Results flagged for a closer look

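The genes named above, except the atrial markers, and the Utrn to Dmd ratio gave 86 groups of 4 libraries. In 12 of these, 1 library lay far from the other 3 relative to the range of its group. Chance flags about 1 in 20 such groups when genes are taken without regard to their values. Of the flagged genes, Fhl1, Rab6a, Xaf1 and Fech were chosen for their likeness to a member, and Xirp2 after its values were seen. Such flags are not independent of the choice of genes, so 12 of 86 cannot be set against that share. WT replicate 2 was the distant library 4 times, always as the highest: Sgcd had 11.7 CPM there against 4.98 to 5.94 CPM in the other WT libraries, Xirp2 had 658 CPM against 243 to 280 CPM, Fhl1, which was chosen for its likeness to Sgcd, had 215 CPM against 83.5 to 91.7 CPM, and the Utrn to Dmd ratio was 1.68 against 1.36 to 1.37. Sgcb had 109 CPM in WT replicate 3 and 101 to 102 CPM in the other WT libraries. Among KO libraries, Utrn had 52.1 CPM in replicate 5 against 62.7 to 63.6 CPM, and Cav3 had 66.2 CPM in replicate 5 against 58.4 to 59.7 CPM. Sntb1 had 2.06 CPM in KO replicate 6 against 0.549 to 0.700 CPM, on 29 counts. Dtna had 49.4 CPM in KO replicate 8 against 27.2 to 29.0 CPM. Among other genes chosen for their likeness to a member, Rab6a (like Utrn) had 61.2 CPM in KO replicate 5 against 72.3 to 74.4 CPM, Xaf1 (like Sntb1) 54.7 CPM in KO replicate 6 against 18.2 to 23.3 CPM, and Fech (like Sgca) 79.9 CPM in WT replicate 4 against 71.2 to 72.6 CPM.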

How the results depend on the processing

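The count of members called stayed at 0 under all 17 alternatives. Of 134 alternative values for single members, 130 kept the sign of the value from all 8 libraries, 0 passed the threshold, and the smallest adjusted p was 0.565 (Sgcb). Sntb1 was filtered out at 1 CPM in 4 libraries and after removal of mitochondrially encoded genes, and DESeq2 gave it no adjusted p. The count of all genes called was 3, and it was 13 with DESeq2, 10 with no filter and 2 to 6 with 1 library left out. With 1 library left out, values that changed sign ran from -0.129 to 0.0276 (Dmd), -0.00996 to 0.328 (Dag1), -0.288 to 0.203 (Sgcd), -0.895 to 0.168 (Sntb1), -0.0295 to 0.307 (Dtna), -0.103 to 0.226 (Dtnb), -0.0095 to 0.108 (Lama2), -0.121 to 0.127 (Pomt1), -0.155 to 0.0119 (Cav3), -0.0475 to 0.224 (Itga7) and -0.0127 to 0.115 (Dysf), and the difference in the Utrn to Dmd ratio from -0.0881 to 0.0616. The same held for medians of lists: -0.136 to 0.0176 (members), -0.0934 to 0.128 (other subunits), -0.00804 to 0.0727 (glycosylation), -0.0442 to 0.0352 (cytosolic partners) and -0.0786 to 0.0185 (integrin linkage). Scaling by library totals moved the median of all genes to -0.0508, and the correction for GC content and length that of the cytosolic partners to -0.0739. Scaling by library totals turned Dtnb to -0.0201 and Pomt1 to -0.0135, and the correction for GC content and length turned Pomt1 to -0.0545, Itga7 to -0.0376 and Dysf to -0.0836. Nbdy kept its direction throughout. The cause of these changes was not tested. Counting error is largest for Sntb1, with 7 to 29 counts per library, and Sgcd, with 61 to 127. No paired analysis was possible because KO replicates 5 to 8 and WT replicates 1 to 4 share no number.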

Other observations

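Among the 28 pairs of members, 1 had a count ratio that did not overlap between genotypes (3.57%, where the share over all pairs of tested genes was 3.70%). The ratio of Sgca to Sgcb was 1.58, 1.5, 1.53 and 1.5 in KO and 1.20, 1.27, 1.20 and 1.43 in WT. This pair was found by looking at all 28, so no test is given. Once the GC content and length trend was removed from each library, the ratio ran from 1.36 to 1.5 in KO and from 1.24 to 1.38 in WT, and 0 of 28 pairs separated the groups. The longest transcript of Sgca has a GC content of 56.7% and that of Sgcb 43.9%.

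Fibroblast markers (7 of 7 tested) summed to 852 to 1080 CPM in KO and 1030 to 1290 CPM in WT, smooth muscle and pericyte markers (7 of 7) to 743 to 1380 CPM in KO and 965 to 1200 CPM in WT, and blood markers (7 of 7) to 1160 to 2170 CPM in KO and 831 to 1810 CPM in WT. Adipocyte markers (0 of 4 tested) summed to at most 0.613 CPM in KO and 3.87 CPM in WT, the highest of these being WT replicate 2, and Lep was at 0 in all libraries. The part of these cells in the levels of the complex was not tested.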
